A study of Mus musculus with 12 samples.

Results

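RNA from brain tissue beside a hematoma was compared between mice whose microglia had lost Fabp4 and control mice, 48 h after intracerebral hemorrhage (ICH). The comparison used 6 of the 12 libraries of the series, 3 labelled ICH-Fabp4CKO and 3 labelled ICH-Fabp4fl_fl, chosen by these labels alone. The ICH-Fabp4CKO mice carried floxed Fabp4 alleles together with a tamoxifen-inducible Cre recombinase (creERT2) under the control of Tmem119, and tamoxifen had been given to delete the gene. The ICH-Fabp4fl_fl mice carried the floxed alleles without a knockout label, and whether they received tamoxifen is not given in the sources used here. Hemorrhage was induced in both groups by collagenase, an enzyme that breaks open small vessels, injected into the striatum. Tissue within a short radius of the hematoma was cut in thin slices, so each library mixed RNA of microglia, blood-derived cells, vessels, glia and neurons. The age and sex of these animals are not given in the labels. The other 6 libraries, labelled Sham-Fabp4CKO and Sham-Fabp4fl_fl, came from mice of the same genotypes operated on without collagenase, and are used here only to set the genotype difference after ICH beside that in sham-operated tissue. Below, "controls" are the ICH-Fabp4fl_fl mice and "knockouts" the ICH-Fabp4CKO mice, and values for each group are given in the order of mice 1, 2 and 3.

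Fabp4 encodes an intracellular carrier of fatty acids that is known from adipocytes and macrophages, where it links lipid handling to inflammatory signaling. Microglia are the resident macrophages of the brain. After bleeding they take up red cell debris and myelin, digest it in lysosomes, and release cytokines and chemokines that act on endothelial cells and draw in leukocytes from the blood. Endothelial cells of brain vessels are sealed by tight junctions, and adhesion molecules on their surface hold passing leukocytes. Cre driven by Tmem119 is meant to act in microglia and not in the other cell types of the tissue, so transcripts of vessels, oligodendrocytes or neurons come from cells that were not targeted.

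The 6 libraries held between 15650813 and 20176069 counts. Levels are given as CPM, counts scaled by library size after trimmed-mean (TMM) normalization over the 6 libraries, and differences as log2 fold changes of knockouts over controls. Mitochondrially encoded genes took 16.3%, 10.4% and 11.9% of the counts in the controls and 8.37%, 9.496% and 7.899% in the knockouts, without overlap. The Y-linked genes Ddx3y, Eif2s3y, Kdm5d and Uty together had 1 count in knockout mouse 1 and between 1369 and 2251 counts in the other 5 libraries. The part of sex in the differences below was not tested. Knockout mouse 2 stood farthest from the other knockouts. The root mean square of its log2 differences over all tested genes was 0.862 against knockout mouse 1 and 1.07 against knockout mouse 3, whereas mice 1 and 3 differed by 0.516. Hemoglobin transcripts, a sign of blood in the tissue, ranged from 172 to 555 CPM in the controls and from 108 to 1092 CPM in the knockouts.

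Fabp4 (ENSMUSG00000062515) was lower in every knockout. It stood at 2.98, 3.71 and 1.26 CPM in the controls and 0.319, 0.157 and 0.541 CPM in the knockouts (log2 fold change -2.94, SE 0.62, adjusted p = 0.295, n = 3 per group, quasi-likelihood test of edgeR, adjusted by Benjamini-Hochberg). These levels rest on 46, 63 and 24 counts in the controls and 5, 3 and 10 counts in the knockouts, and the groups did not overlap. In the sham mice the gene had 2, 1 and 2 counts in Sham-Fabp4fl_fl and none in Sham-Fabp4CKO. After ICH the adjusted p was 0.00249 with DESeq2 and 0.0418 when all 12 libraries shared one quasi-likelihood fit. Tmem119, whose regulatory sequence drives the Cre, stood at 86.4, 108 and 88.7 CPM in the controls and 117, 68.2 and 169.7 CPM in the knockouts and overlapped between the groups (log2 fold change 0.33). Of the other genes the study followed, S100a9, an alarmin of neutrophils and activated myeloid cells, stood at 8.95, 2.71 and 1.73 CPM in the controls and 50.04, 6.09 and 48.9 CPM in the knockouts. Its log2 fold change was 2.98 (SE 0.95, adjusted p = 0.347 with edgeR and 0.0244 with DESeq2), with knockout mouse 2 below control mouse 1. The cytokine gene Tnf (4.22, 3.48 and 1.15 against 9.88, 1.47 and 6.87 CPM) and the heme-sensing repressor gene Bach1 (33.99, 38.97 and 27.6 against 58.3, 24.9 and 69.1 CPM) overlapped between the groups. Vcam1, an endothelial adhesion molecule, was lower in each knockout, at 122, 195 and 107 CPM in the controls and 92.5, 86.2 and 92.9 CPM in the knockouts (log2 fold change -0.64, SE 0.25, adjusted p = 0.392, edgeR).

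Over all genes, 0 of 14600 passed an adjusted p of 0.05 in edgeR's quasi-likelihood test, the smallest adjusted p was 0.119, and 1777 genes had an unadjusted p under 0.05. With the same 6 libraries, DESeq2 called 238 genes higher (1.57% of those with an adjusted p) and 294 lower (1.94%) in the knockouts at its adjusted threshold, and edgeR's exact test called 129 higher (0.884%) and 136 lower (0.932%). All 12 libraries in one quasi-likelihood fit called 154 higher (1.02%) and 208 lower (1.38%). To describe groups of genes, an unadjusted p under 0.05 together with a fold change of at least 1.5 was used, and a gene past both is called higher or lower "by the unadjusted thresholds". By these, 643 genes (4.4%) were higher and 647 (4.43%) lower in the knockouts, and counts within gene lists are to be read against these shares. Knockouts and controls did not overlap for 1507 higher genes (10.3%) and 1416 lower genes (9.7%). The median log2 fold change of all genes was 0.06, and 43.8% of genes lay below 0.

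Among genes that passed the unadjusted thresholds without overlap, the smallest p on the lower side belonged to Igfbp2, which encodes a binding protein of insulin-like growth factors. It was present at 169, 166 and 122 CPM in the controls and 35.4, 28.9 and 30.2 CPM in the knockouts (log2 fold change -2.27, SE 0.20, adjusted p = 0.119, edgeR; adjusted p = 9.04e-21 with DESeq2). Timp4, an inhibitor of matrix metalloproteinases, was at 79.2, 76.7 and 70.3 CPM in the controls and 26.3, 26.9 and 21.05 CPM in the knockouts (log2 fold change -1.61, SE 0.16). The other 10 of the 12 lower genes with the smallest p held the vascular genes Cldn5, Vtn and Myl9 and the phosphatase inhibitor gene Ppp1r14a. They also held the interferon-inducible GTPase genes Iigp1, Tgtp1 and Gbp4 and the alkaline ceramidase gene Acer2 (77.8, 53.4 and 48.8 against 19.7, 17.1 and 15.9 CPM). The phospholipid scramblase gene Plscr2 (23.4, 26.1 and 16.4 against 5.61, 5.83 and 6.93 CPM) and the T-box transcription factor gene Tbx1 (10.2, 9.08 and 5.502 against 1.66, 1.36 and 1.68 CPM) completed them.

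On the higher side the smallest p belonged to the kinesin gene Kif19a, at 2.79, 2.71 and 2.83 CPM in the controls and 13.96, 11.9 and 10.8 CPM in the knockouts (log2 fold change 2.13, SE 0.21, adjusted p = 0.119, edgeR). Thbs4, a matricellular thrombospondin, stood at 3.05, 5.07 and 2.67 CPM in the controls and 29.2, 49.9 and 27.00 CPM in the knockouts, a log2 fold change of 3.30 (SE 0.38). For Col6a5, a collagen VI chain, and Spata18, a gene of mitochondrial quality control, each control had no more than 3 counts, taken here as a floor. Against that floor in each control library, Col6a5 was at least 27.7-fold higher and Spata18 at least 15.6-fold higher in the knockouts. Both genes, like Frmpd2 and Smim43 below, lay under the level of the filter on low counts in each control. They passed it through the knockouts alone, so they could only be called higher. Another 7 of the 12 were Frmpd2 (0.195, 0.236 and 0.2096 against 1.91, 1.73 and 2.06 CPM), the homeobox gene Adnp (7.14, 7.25 and 7.598 against 18.2, 30.1 and 24.5 CPM), the neutrophil-attracting chemokine gene Cxcl5 (0.584, 0.825 and 0.734 against 4.84, 3.41 and 6.601 CPM), Cd83 of activated antigen-presenting cells and microglia (17.4, 14.7 and 13.6 against 45.6, 33.4 and 43.4 CPM), the neuronal pentraxin gene Nptx1 (11.4, 13.6 and 15.6 against 54.9, 121 and 55.1 CPM), the cadherin gene Celsr1 (3.18, 4.42 and 4.51 against 11.3, 19.7 and 15.1 CPM) and Smim43 (0.195, 0.295 and 0.0524 against 2.68, 8.97 and 4.27 CPM).

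**Figure D1:**
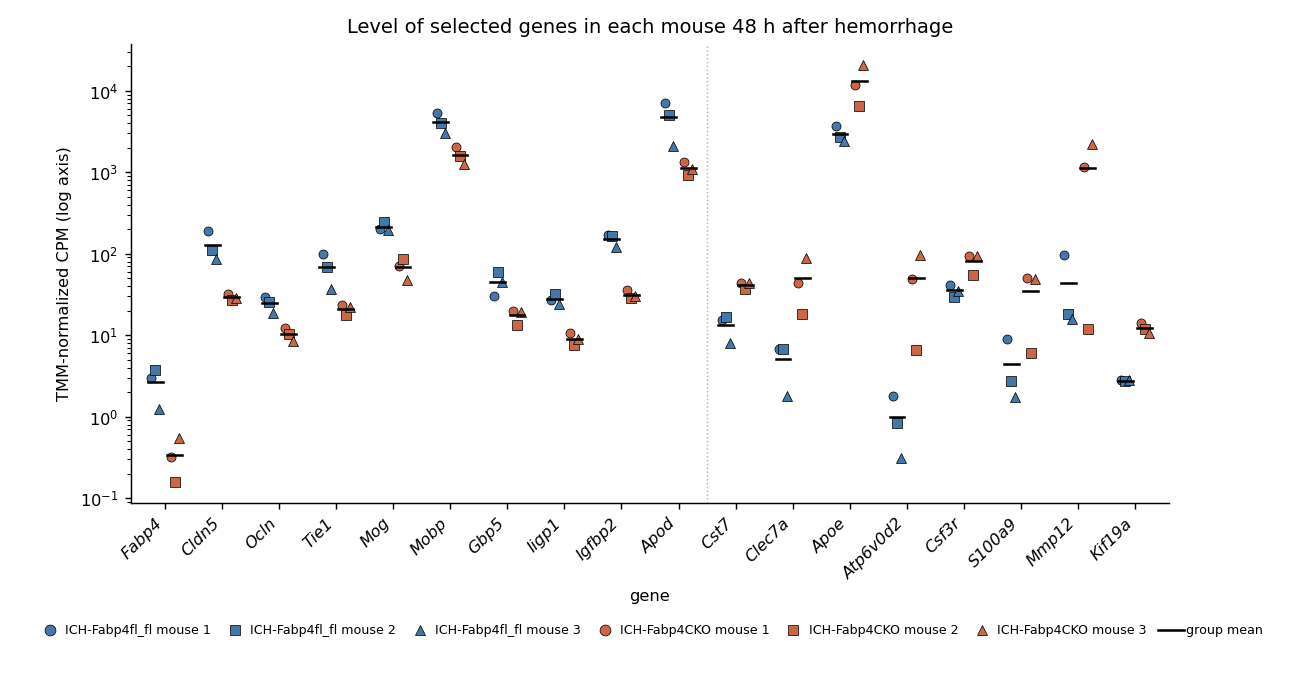
TMM-normalized CPM on a log axis for 18 genes in each of the 6 ICH mice, with controls in blue, knockouts in orange, a marker shape per mouse number and the group mean as a bar. Left of the dotted line the 10 genes were lower in each knockout than in each control, whereas on the right S100a9 and Mmp12 overlapped, with knockout mouse 2 within the controls or below them.

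Endothelial transcripts were lower in the knockouts. All 20 endothelial marker genes had a log2 fold change below 0, 18 of them were lower by the unadjusted thresholds, and the median was -1.26, against 0.06 over all genes. Cldn5, the main sealing claudin of brain endothelium, stood at 189.7, 112 and 87.2 CPM in the controls and 31.7, 26.9 and 28.9 CPM in the knockouts (log2 fold change -2.15, SE 0.31, adjusted p = 0.209, edgeR; adjusted p = 4.17e-07 with DESeq2). The knockouts lay close together, and the controls were spread more widely, with mouse 1 highest. Tie1 and Tek, the receptor kinases of the angiopoietin system, were at 98.5, 68.9 and 37.1 CPM in the controls and 23.6, 17.5 and 22.3 CPM in the knockouts for Tie1 and 58.1, 40.03 and 32.9 CPM in the controls and 19.4, 18.4 and 19.1 CPM in the knockouts for Tek. Robo4, an endothelial guidance receptor, stood at 39.6, 27.9 and 19.7 CPM in the controls and 13.8, 10.5 and 10.01 CPM in the knockouts (log2 fold change -1.34, SE 0.30). The von Willebrand factor gene Vwf stood at 468, 257 and 139.7 CPM in the controls and 118, 57.1 and 115 CPM in the knockouts, with control mouse 3 near the knockouts. The cell junction genes Pecam1 (-1.26), Cdh5 (-1.27) and Esam (-1.34), the transcription factor genes Sox18 (-1.56), Erg (-1.36) and Sox17 (-0.90), and the VEGF receptor genes Kdr (-0.95) and Flt1 (-0.69) had the log2 fold changes given in parentheses. Emcn and Eng were the 2 members that did not pass, and the groups overlapped for both. With DESeq2, 11 of the 20 were lower at its adjusted threshold. In bulk tissue, fewer cells of a type and less RNA per cell cannot be told apart.

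Control mouse 1 had the highest mean level of the endothelial list. The mean log2 CPM of the 20 genes was 6.54, 5.92 and 5.43 in the controls and 4.94, 4.53 and 4.77 in the knockouts. Leaving out one library at a time gave medians from -1.59 to -0.94, and moved the number of members lower by the unadjusted thresholds between 11, without control mouse 1, and 20, without control mouse 3. The direction was the same in each of the 6 leave-one-out fits.

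Most genes for seals and transporters of the blood-brain barrier were lower. Of 17 genes for tight junctions and barrier transporters, 12 were lower and 1 higher by the unadjusted thresholds, with a median log2 fold change of -0.98 (-1.07 to -0.85 over the leave-one-out fits), and 11 were lower with DESeq2 at its adjusted threshold. Ocln, which encodes occludin, was at 29.7, 25.5 and 18.6 CPM in the controls and 12.2, 10.5 and 8.39 CPM in the knockouts (log2 fold change -1.25, SE 0.25, adjusted p = 0.295, edgeR). The lipid transporter gene Mfsd2a stood at 49.7, 49.1 and 37.6 CPM in the controls and 24.7, 23.98 and 18.1 CPM in the knockouts, the amino acid transporter gene Slc7a5 at 132, 135 and 102 CPM in the controls and 66.1, 69.1 and 61.7 CPM in the knockouts, and the glucose transporter gene Slc2a1 at 689.5, 396 and 271 CPM in the controls and 218, 170.2 and 189 CPM in the knockouts. The scaffold gene Tjp1 (ZO-1) differed less, at 188, 223 and 169 CPM in the controls and 168, 145 and 167 CPM in the knockouts (log2 fold change -0.27, SE 0.18). The single higher member was Cgn, which encodes the junction protein cingulin, at 2.85, 0.5895 and 1.21 CPM in the controls and 5.74, 3.78 and 9.47 CPM in the knockouts (log2 fold change 2.03, SE 0.63, adjusted p = 0.341, edgeR).

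Of 19 tested genes for leukocyte adhesion, 9 were lower and 0 higher by the unadjusted thresholds, with a median of -0.64 and 5 lower with DESeq2. The lower members included Jam2 (108, 142 and 113 against 66.5, 77.2 and 63.6 CPM; log2 fold change -0.81, SE 0.18, adjusted p = 0.295, edgeR), Icam2 (17.3, 14.6 and 7.55 against 5.04, 3.04 and 4.82 CPM), the sulfotransferase gene Chst2, which modifies selectin ligands (205, 222 and 199.7 against 117, 149 and 111 CPM), and Cd34 (184, 159 and 99.6 against 85.3, 61.1 and 63.5 CPM). The leukocyte integrin genes Itgam (274, 270.3 and 256 against 535, 197 and 736 CPM) and Itgb2 (241, 188 and 115 against 419.7, 127 and 648 CPM) overlapped, with log2 fold changes of 0.87 and 1.14. The inducible endothelial receptor genes Icam1 (-0.27), Sele (-0.62) and Selp (-1.54) were not called. Among 20 angiogenic ligands and receptors, 6 were lower and 1 higher. The lower ones included the tip-cell peptide gene Apln (115, 119 and 89.2 against 63.1, 47.8 and 49.2 CPM) and the receptor gene Flt4 (28.7, 21.4 and 15.98 against 11.2, 5.72 and 8.93 CPM), and the higher one was Nrp1, a co-receptor that macrophages also express, at 35.6, 35.4 and 25.1 CPM in the controls and 96.4, 27.7 and 199.97 CPM in the knockouts, where knockout mouse 2 lay within the controls. Leaving out knockout mouse 2 gave 3 higher angiogenic and 3 higher adhesion genes, and leaving out any other library gave 0.

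Mural cell genes gave a mixed picture. Of 13 pericyte and smooth muscle genes, 4 were lower and 1 higher by the unadjusted thresholds, with a median of -0.57. Vtn, which encodes vitronectin, stood at 152, 122 and 135 CPM in the controls and 60.5, 62.4 and 65.4 CPM in the knockouts (log2 fold change -1.12, SE 0.16, adjusted p = 0.208, edgeR), and Rgs5 stood at 419, 279 and 253 CPM in the controls and 154, 135 and 238 CPM in the knockouts. The contractile gene Myl9 (66.9, 63.8 and 40.8 against 15.6, 14.9 and 16.7 CPM) and the phosphatase inhibitor gene Ppp1r14a (28.4, 26.8 and 20.2 against 8.92, 8.92 and 6.11 CPM) were lower without overlap. Neither was a member of the list, and the cells their transcripts came from were not tested. Anpep was higher, at 40.2, 25.4 and 17.9 CPM in the controls and 197, 26.6 and 408 CPM in the knockouts, where knockout mouse 2 lay within the controls and the other two far above them. Tagln overlapped between the groups (271, 316 and 88.2 against 139.6, 34.6 and 69.2 CPM). The number of lower members was 2 without control mouse 1. The number of higher ones was 3 without knockout mouse 2 and 0 without control mouse 2 or 3.

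Myelin transcripts were lower as a block. All 10 oligodendrocyte genes were lower by the unadjusted thresholds without overlap, with a median log2 fold change of -1.17 (-1.31 to -0.96 with one library left out), and 6 were lower with DESeq2. Mog, a surface protein of mature myelin, stood at 203, 248 and 196 CPM in the controls and 71.7, 85.4 and 48.2 CPM in the knockouts (log2 fold change -1.65, SE 0.26, adjusted p = 0.231, edgeR; adjusted p = 3.45e-06 with DESeq2). The abundant structural genes Mbp (15526, 12841 and 10263 against 6228, 6619.5 and 4060.4 CPM) and Mobp (5359.7, 4058 and 3037 against 2023, 1581 and 1263 CPM) and the myelin claudin gene Cldn11 (667, 697 and 444 against 272, 236 and 174 CPM) were lower as well, with log2 fold changes of -1.19, -1.36 and -1.41. Knockout mouse 3 had the lowest level of all 4 of these genes. Among 10 oligodendrocyte precursor genes, Olig1 (297, 293 and 293 against 150.5, 159 and 102 CPM), Nkx2-2 (12.3, 17.3 and 14.6 against 9.69, 10.2 and 9.14 CPM) and Bcas1 (1117, 937 and 574 against 622, 456 and 452 CPM) were lower and the others were not called, including the precursor receptor gene Pdgfra (log2 fold change -0.27). The number of lower precursor genes ranged from 1, without knockout mouse 3 or control mouse 2, to 5, without control mouse 3.

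Transcripts of T and NK cells were scarce. Of 11 tested T and NK cell genes, 6 were lower by the unadjusted thresholds and 10 lay below 0, with a median of -1.32 (-1.50 to -0.96 over the leave-one-out fits). The granzyme gene Gzma stood at 1.69, 3.301 and 1.41 CPM in the controls and 0.701, 0.315 and 0.541 CPM in the knockouts (log2 fold change -2.04, SE 0.52, adjusted p = 0.313, edgeR), Gzmb at 2.01, 2.48 and 1.05 CPM in the controls and 0.765, 0.315 and 0.487 CPM in the knockouts, and the T cell receptor genes Cd3g and Trac at 1.82, 2.18 and 2.46 against 1.02, 0.472 and 0.866 CPM and 1.75, 3.36 and 1.83 against 0.892, 0.735 and 1.14 CPM. Without control mouse 2 the number of lower members was 3, and it was between 4 and 6 without any other library. These levels rest on few counts, so single values are imprecise. Gzma and Gzmb lay under the level of the count filter in knockout mice 2 and 3 and passed it through the controls, which favors a call as lower. When 10 counts were required in every library, the median of the list was -0.70. The helper T cell gene Cd4, which myeloid cells share, was at 9.73, 8.31 and 53.2 CPM in the controls and 23.2, 33.3 and 21.3 CPM in the knockouts and overlapped between the groups. Only 2 of 6 B cell genes passed the filter on low counts, and neither was called.

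Interferon-inducible GTPases, the guanylate-binding proteins (GBP) and immunity-related GTPases (IRG) that cells make in response to interferon and use against intracellular pathogens, held calls in 1 direction. Of 16 tested genes, 8 were lower and 0 higher by the unadjusted thresholds, 15 lay below 0, the median log2 fold change was -0.68, and 4 were lower with DESeq2. Without control mouse 2 the number of lower members was 4, and it was between 6 and 11 without any other library. Tgtp1 stood at 8.95, 16.7 and 12.9 CPM in the controls and 2.68, 3.36 and 3.14 CPM in the knockouts (log2 fold change -2.07, SE 0.29, adjusted p = 0.208, edgeR), Iigp1 at 27.1, 31.7 and 24.5 CPM in the controls and 10.7, 7.61 and 8.98 CPM in the knockouts and Gbp4 at 10.4, 14.9 and 10.2 CPM in the controls and 3.57, 2.78 and 3.68 CPM in the knockouts. Gbp5 stood at 30.6, 59.5 and 45.3 CPM in the controls and 19.7, 13.5 and 19.3 CPM in the knockouts, without overlap and with a log2 fold change of -1.37 (SE 0.29). Gbp2 (-0.61), Gbp3 (-0.87), Gbp7 (-0.74) and Tgtp2 (-1.01) were the other called members, and Irgm1 (-0.61), Igtp (-0.41) and Irgm2 (-0.22) were not called. Tgtp1 and Tgtp2, and members of the GBP cluster, are near copies of each other, so reads could be divided between them in ways the counts do not show. The broader type I interferon response had 1 of 29 genes lower, Ifi44 (8.11, 18.4 and 10.4 against 6.82, 3.67 and 4.27 CPM), and 23 below 0, with a median of -0.22. Without knockout mouse 1, 9 of the 29 were lower with a median of -0.55. When knockout mouse 2 was left out, 1 was lower and 2 were higher with a median of 0.01. Without knockout mouse 3 or control mouse 3, 2 were lower. Ifit3 overlapped (77.9, 134 and 100.1 against 93.95, 57.6 and 65.4 CPM).

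The stretches before the starts of 3 of the called GTPase genes are shown because these members were lower together and 2 patterns known from interferon response were searched there. RefSeq windows (build GRCm38.p6, 250 bases before to 50 after the start) were found for 10 of the 17 listed genes. The pattern GAAANNGAAA, the core of interferon-stimulated response elements read on both strands, was present in the windows of 9 of these 10 genes and in 3.44% of all 32851 windows. The palindromic pattern TTCNNNGAA, the core of STAT binding elements, was present for 6 of the 10 genes and in 8.30% of all windows. The 250 bases before each start are given in the direction of the gene, with matches to either pattern in capitals. A match describes letters only and is no evidence of binding.
Gbp5 (chr3:142496684-142496933, + strand): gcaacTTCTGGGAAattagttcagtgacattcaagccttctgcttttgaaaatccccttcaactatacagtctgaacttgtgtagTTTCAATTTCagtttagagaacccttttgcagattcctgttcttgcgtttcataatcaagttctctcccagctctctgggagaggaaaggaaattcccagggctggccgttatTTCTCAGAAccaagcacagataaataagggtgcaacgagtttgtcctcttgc
Gbp7 (chr3:142530086-142530335, + strand): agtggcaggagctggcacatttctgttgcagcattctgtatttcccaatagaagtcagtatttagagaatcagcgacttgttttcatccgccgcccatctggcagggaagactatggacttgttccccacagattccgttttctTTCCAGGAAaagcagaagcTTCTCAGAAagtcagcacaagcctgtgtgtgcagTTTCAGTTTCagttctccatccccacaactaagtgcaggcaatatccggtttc
Tgtp1 (chr11:48992247-48992496, - strand): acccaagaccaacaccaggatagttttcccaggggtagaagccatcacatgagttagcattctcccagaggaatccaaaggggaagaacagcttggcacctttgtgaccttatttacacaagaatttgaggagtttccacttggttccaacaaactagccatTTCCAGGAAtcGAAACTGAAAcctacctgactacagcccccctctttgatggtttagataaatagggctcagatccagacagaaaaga
Gbp5 and Gbp7 each held 1 GAAANNGAAA match, read from the opposite strand, and 2 TTCNNNGAA matches, and Tgtp1 held 1 of each, separated by a pair of bases. The patterns were not particular to called members. Igtp and Irgm2, which were not called, also held 1 of each, and Irgm1, not called, held 2 GAAANNGAAA matches. The called genes Gbp2 and Gbp3 held 0 TTCNNNGAA matches.

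Antigen presentation genes were not called. None of 15 MHC class I genes (median 0.02) and none of 8 MHC class II genes (median -0.09) was called in either direction, and the abundant members B2m (1059.6, 1109 and 597 against 1019, 562 and 1471 CPM) and Cd74 (197, 203 and 119.8 against 174, 69.4 and 190.0 CPM) overlapped.

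Several secreted and glial genes were lower without overlap. Fabp7, the fatty acid carrier of astrocytes and radial glia, stood at 68.4, 66.6 and 72.7 CPM in the controls and 20.7, 32.6 and 33.7 CPM in the knockouts (log2 fold change -1.25, SE 0.22, adjusted p = 0.269, edgeR; adjusted p = 0.000275 with DESeq2). Of 10 genes of the fatty acid binding protein family 4 passed the filter, Fabp4 and Fabp7 were lower, and Fabp5 (345, 201 and 183 against 327, 115 and 586 CPM) and Fabp3 (log2 fold change 0.21) were not called. Apod, which encodes a lipid-binding lipocalin of glia and perivascular cells, stood at 7138, 5052 and 2098 CPM in the controls and 1356, 929 and 1108 CPM in the knockouts (log2 fold change -2.07, SE 0.49, adjusted p = 0.295, edgeR), and the controls differed more than 3-fold among themselves. Of 14 reactive astrocyte genes, 13 lay below 0 and 3 were lower by the unadjusted thresholds, with a median of -0.70. These were Fabp7, the protease inhibitor gene Timp1 (184, 195 and 76.04 against 75.02, 25.03 and 46.96 CPM) and the chemokine gene Cxcl10 (30.6, 65.3 and 63.9 against 36.97, 17.1 and 16.02 CPM). The number of lower members was 6 without knockout mouse 1 or control mouse 3 and 1 without control mouse 2. Gfap, the intermediate filament of astrocytes, stood at 4075, 4119.9 and 4037 CPM in the controls and 3108, 2871 and 2325 CPM in the knockouts, without overlap but under the fold threshold (log2 fold change -0.56). Among 10 genes of resting astrocytes, Aldh1l1 was lower (147, 182 and 177 against 99.8, 105 and 75.1 CPM; log2 fold change -0.85, SE 0.20, adjusted p = 0.295, edgeR) and the others were not called, including the glutamate transporter gene Slc1a2 (439.9, 876 and 1642 against 1149.8, 2673 and 1759 CPM). The small heat shock gene Cryab, which oligodendrocytes and astrocytes express, stood at 384, 369 and 278 CPM in the controls and 191, 167 and 92.2 CPM in the knockouts.

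Of 18 disease-associated microglia (DAM) genes, a program that microglia adopt around damaged tissue, 9 were higher and 0 lower by the unadjusted thresholds, with a median of 1.42 (0.86 to 1.76 over the leave-one-out fits) and 4 higher with DESeq2. Cst7, which encodes a cystatin, stood at 15.3, 16.5 and 8.07 CPM in the controls and 43.5, 37.3 and 43.2 CPM in the knockouts (log2 fold change 1.64, SE 0.29, adjusted p = 0.283, edgeR; adjusted p = 0.000366 with DESeq2) and was evenly high in all 3 knockouts. Clec7a, the receptor dectin-1, stood at 6.75, 6.84 and 1.78 CPM in the controls and 44.4, 18.2 and 89.5 CPM in the knockouts, and the lipid carrier gene Apoe at 3731, 2681 and 2426 CPM in the controls and 11738, 6516 and 20873 CPM in the knockouts (log2 fold change 2.15, SE 0.51, adjusted p = 0.295, edgeR), both without overlap. Gpnmb stood at 561, 528 and 267 CPM in the controls and 3605, 579 and 7675 CPM in the knockouts, where knockout mouse 2 lay just above the controls. The lipid sensor gene Trem2 (log2 fold change 1.44), its adaptor Tyrobp (1.31), Itgax (1.73), Lpl (2.15) and the cathepsin gene Ctsd (1.75) were the other called members. The number of higher members was 13 without knockout mouse 2, 4 without knockout mouse 3 or control mouse 3, and 5 without knockout mouse 1 or control mouse 2. Spp1, which encodes the secreted protein osteopontin, stood at 4536, 1272 and 442 CPM in the controls and 7547, 428 and 15469 CPM in the knockouts and overlapped.

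Genes of resting microglia were called in both directions. Of 14 homeostatic microglia genes, 3 were higher and 1 lower, with a median of 0.27. The higher ones included Gpr34 (39.7, 33.4 and 42.2 against 75.6, 45.6 and 78.2 CPM) and the fractalkine receptor gene Cx3cr1 (221, 226 and 266 against 460.0, 259 and 523 CPM), and the lower one was Sparc (1407, 1430.5 and 1038 against 826, 649.6 and 848 CPM), which endothelial cells and astrocytes also make. These calls depended on single libraries. There were 0 in either direction without knockout mouse 1 or control mouse 2, and 1 higher and 0 lower without control mouse 1. Leaving out knockout mouse 3 or control mouse 3 gave 1 in each direction. Leaving out knockout mouse 2 gave 6 higher and 3 lower. The median ran from 0.02 to 0.48. Of 16 monocyte and macrophage genes only Ms4a7 was higher (18.5, 23.99 and 13.6 against 77.8, 12.1 and 129 CPM), with knockout mouse 2 below each control. Without knockout mouse 2, 5 of the 16 were higher, and without any other library 0 or 1 was. Fn1 (1365, 884 and 419 against 1639.6, 295 and 2231 CPM) and Arg1 (554, 155 and 73.4 against 311, 55.3 and 303 CPM) overlapped.

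Of the 20 listed lysosome genes 6 were higher by the unadjusted thresholds and 3 with DESeq2. All 20 had a log2 fold change above 0, with a median of 1.00 (0.48 to 1.37 over the leave-one-out fits). The mean log2 CPM of the list was 8.76, 8.37 and 8.03 in the controls and 9.63, 8.32 and 10.33 in the knockouts, so that knockout mouse 2 lay inside the controls. Atp6v0d2, a macrophage subunit of the proton pump that acidifies lysosomes, had the widest difference, at 1.82, 0.825 and 0.314 CPM in the controls and 48.5, 6.51 and 96.03 CPM in the knockouts (log2 fold change 5.70, SE 1.14, adjusted p = 0.295, edgeR; adjusted p = 5.32e-07 with DESeq2). Another pump subunit gene, Atp6v1a, stood at 181, 219.7 and 209 CPM in the controls and 301, 331 and 429.7 CPM in the knockouts and the hexosaminidase gene Hexa at 219, 220.2 and 177 CPM in the controls and 642, 249 and 1112 CPM in the knockouts, without overlap. Ctsd stood at 6177, 4521 and 3370.1 CPM in the controls and 16201, 5254 and 25779 CPM in the knockouts and Ctsb at 4397, 3044 and 2232 CPM in the controls and 8593, 2560.4 and 14553 CPM in the knockouts, with knockout mouse 2 inside the range of the controls for both. Without knockout mouse 2, 19 of the 20 genes were higher by the unadjusted thresholds and the median was 1.37. The number was 2 without control mouse 3, 3 without control mouse 2, knockout mouse 1 or knockout mouse 3, and 5 without control mouse 1. Lrp1, a scavenger receptor for lipoproteins and heme-hemopexin, stood at 554, 582 and 459 CPM in the controls and 1320.4, 613 and 2097 CPM in the knockouts, the only called gene among 17 for heme and iron handling. Fth1, the ferritin heavy chain gene, was lower in each knockout, by a narrow margin (13115, 9897 and 6073 against 6027, 3442 and 5847 CPM), and did not pass (log2 fold change -0.93). Of 24 tested genes of lipid uptake and droplets, 2 were higher, the fatty acid transporter gene Slc27a1 (51.4, 43.8 and 52.6 against 77.4, 57.2 and 123 CPM) and the lipase gene Lpl (194, 90.97 and 80.9 against 526, 106 and 996 CPM), 1 was lower, Apod, and the droplet coat gene Plin2 overlapped (457, 191 and 115 against 684, 73.8 and 1645 CPM). Without knockout mouse 2, 7 of these 24 lipid genes and 4 of the 17 heme and iron genes were higher, and without any other library no more than 2 and 1.

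All 12 tested neutrophil genes had a log2 fold change above 0, 6 were higher by the unadjusted thresholds, 4 were higher with DESeq2, and the median was 1.60 (1.10 to 2.66 over the leave-one-out fits). Without control mouse 2 or control mouse 3 the number of higher members was 1, and it was between 4 and 8 without any other library. Csf3r, the receptor of granulocyte colony-stimulating factor, stood at 41.5, 29.7 and 35.3 CPM in the controls and 93.3, 54.6 and 95.1 CPM in the knockouts (log2 fold change 1.19, SE 0.26, adjusted p = 0.295, edgeR). It was the single member of the 12 without overlap, beside 10.3% of all genes higher without overlap. In each library its level lay above those of S100a8, Retnlg, Ngp and Ltf below, and which cells it came from was not tested. S100a8, the partner of S100a9, stood at 4.61, 1.06 and 1.47 CPM in the controls and 20.5, 2.99 and 19.5 CPM in the knockouts and Retnlg at 0.778, 0.118 and 0.157 CPM in the controls and 5.74, 0.525 and 4.27 CPM in the knockouts, with knockout mouse 2 inside the range of the controls. The granule genes Ngp (1.69, 0.472 and 0.157 against 3.31, 1.26 and 77.5 CPM) and Ltf (0.584, 0.531 and 0.157 against 1.53, 0.577 and 34.6 CPM) were high in knockout mouse 3 alone. Ly6g, which defines neutrophils, had no counts in the controls or in knockout mouse 2 and was under the filter, as were Camp and Mpo.

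Of 24 tested chemokine genes, 3 were higher and 2 lower. The neutrophil-attracting genes Cxcl3 (0.843, 0.413 and 0.157 against 20.5, 3.57 and 4.004 CPM; log2 fold change 4.32, SE 0.96, adjusted p = 0.295, edgeR), Cxcl5 and Cxcl2 (1.95, 1.41 and 0.314 against 20.5, 2.36 and 3.95 CPM) were higher without overlap, and the lymphocyte-attracting interferon targets Cxcl9 (1.297, 22.5 and 4.72 against 1.59, 2.204 and 1.73 CPM) and Cxcl10 were lower, both with overlap. Cxcl9 was high in control mouse 2 alone. When knockout mouse 2 was left out, 9 were higher and 0 lower. The number lower was also 0 without knockout mouse 3 or control mouse 2, and it was 1 without control mouse 3. Among 24 inflammatory cytokine and NF-kB genes, 3 were higher, the interleukin-1 receptor antagonist gene Il1rn (10.9, 7.61 and 4.82 against 76.6, 10.5 and 24.9 CPM), the NF-kB feedback gene Tnfaip3 (15.6, 15.98 and 9.64 against 37.9, 15.1 and 43.9 CPM) and the inflammasome gene Nlrp3 (6.75, 7.43 and 5.398 against 24.3, 5.88 and 18.6 CPM), and the median was 0.52. Knockout mouse 2 lay inside the control range for each of these 3. Without it 13 of the 24 were higher, and without any one of the other libraries the number ranged from 0 to 2. Of 18 complement genes, 1 was higher, the integrin gene Itgax, and C1qa (825, 457 and 447 against 1299, 545 and 1919 CPM) overlapped. Of the 18 complement genes 9 were higher when knockout mouse 2 was left out. The number was 2 without control mouse 1 and 0 without knockout mouse 3 or control mouse 3.

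Collagen and matrix genes were uneven among the knockouts. Of 14 collagen genes, 5 were higher by the unadjusted thresholds and 0 lower, with a median of 1.51. Col6a3 stood at 3.76, 3.07 and 3.46 CPM in the controls and 29.2, 7.03 and 53.5 CPM in the knockouts (log2 fold change 3.12, SE 0.70, adjusted p = 0.295, edgeR; adjusted p = 0.000593 with DESeq2), without overlap. Col1a1 stood at 71.1, 39.1 and 15.2 CPM in the controls and 328, 15.7 and 665 CPM in the knockouts and Col1a2 at 81.9, 53.5 and 25.3 CPM in the controls and 333, 23.7 and 674 CPM in the knockouts, with knockout mouse 2 close to the lowest control for both. Col4a1, a collagen of vessel basement membranes, did not share this and stood at 687, 467 and 294 CPM in the controls and 435, 75.6 and 634 CPM in the knockouts (log2 fold change -0.34). The median of the list ran from 0.63 to 2.04 over the leave-one-out fits, with 10 higher members when knockout mouse 2 was left out and 1 when any other library was. Mmp12, the macrophage elastase, stood at 96.6, 18.2 and 15.98 CPM in the controls and 1165, 11.9 and 2198 CPM in the knockouts, and Plau, the urokinase gene, at 33.3, 29.1 and 16.5 CPM in the controls and 162, 20.3 and 239 CPM in the knockouts. Timp2 was higher in all knockouts, at 276, 347 and 314 CPM in the controls and 635, 537 and 974 CPM in the knockouts (log2 fold change 1.19, SE 0.28, adjusted p = 0.295, edgeR).

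The insulin-like growth factor axis had calls in both directions. Beside Igfbp2, Igfbp3 was lower (202, 107 and 48.4 against 50.3, 18.7 and 36.1 CPM), whereas Igfbp5 (115, 251 and 177 against 412, 786 and 767 CPM; log2 fold change 1.85, SE 0.39, adjusted p = 0.295, edgeR), the ligand gene Igf1 (49.6, 8.55 and 11.01 against 163, 27.9 and 316 CPM) and the receptor gene Igf2r (43.3, 43.04 and 33.96 against 141, 46.97 and 272 CPM) were higher. Without control mouse 3, 1 of the axis was higher, and without control mouse 1, 1 was lower.

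Of 12 genes of cortical excitatory neurons, 6 were higher by the unadjusted thresholds without overlap, 5 with DESeq2, and the median was 1.81 (1.12 to 2.29 over the leave-one-out fits). Slc17a7, the vesicular glutamate transporter of cortical neurons, stood at 8.11, 7.13 and 34.5 CPM in the controls and 67.2, 381 and 81.8 CPM in the knockouts (log2 fold change 3.41). Tbr1, a deep-layer transcription factor, stood at 0.714, 0.5895 and 2.57 CPM in the controls and 7.904, 41.7 and 11.1 CPM in the knockouts, Neurod6 at 0.195, 0.354 and 0.419 CPM in the controls and 2.36, 11.1 and 4.87 CPM in the knockouts and Neurod2 at 0.259, 0.118 and 0.367 CPM in the controls and 2.36, 16.6 and 4.65 CPM in the knockouts. Knockout mouse 2 had the highest level of these 4 genes. Neurod6 and Neurod2 lay under the level of the count filter in each control and passed it through the knockouts alone, so they could only be called higher. When 10 counts were required in every library, the median of the list was 0.41. Members that striatal neurons share, such as Camk2a (316, 549 and 1044 against 715, 1744 and 671 CPM), overlapped. None of 12 striatal projection neuron genes (median -0.01), 11 interneuron genes or 18 synaptic genes was called, and Ppp1r1b, which encodes DARPP-32, stood at 343, 478 and 1317 CPM in the controls and 514, 935 and 417 CPM in the knockouts. The part of cortical tissue in the other differences was not tested. Among 12 immediate early genes, Egr2 (2.66, 1.297 and 1.89 against 6.63, 8.76 and 8.17 CPM; log2 fold change 2.01, SE 0.33, adjusted p = 0.252, edgeR) and Fosb (3.57, 3.24 and 4.04 against 5.099, 18.8 and 5.19 CPM) were higher. The number was 4 without knockout mouse 1 and 1 without control mouse 2.

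Lists of growth and metabolism held few calls. All 20 mitosis genes lay below 0 with a median of -0.76, of which 1 was lower by the unadjusted thresholds, Cdc20 (30.5, 23.3 and 15.4 against 10.01, 4.04 and 15.2 CPM). Mki67 stood at 122, 91.3 and 36.6 CPM in the controls and 49.3, 9.66 and 114 CPM in the knockouts, with knockout mouse 2 lowest and knockout mouse 3 near the highest control, and without knockout mouse 2 the median was -0.33 with 2 genes lower. Without knockout mouse 3 it was -1.44 with 9 genes lower. Without knockout mouse 1, control mouse 1 or control mouse 2 0 were lower. Of 20 DNA replication genes 19 lay below 0 and 2 were lower, including Rrm2 (78.9, 68.6 and 57.7 against 27.03, 8.55 and 45.6 CPM). The number lower was 0 without knockout mouse 1, control mouse 1 or control mouse 2. All 13 mitochondrially encoded respiratory chain genes lay below 0 (median -0.62, 1 lower), and so did 18 of 21 nuclear ones (median -0.37, 2 lower). Without control mouse 2 the numbers lower were 3 and 6, and without knockout mouse 3 or control mouse 1 both were 0. Of 18 NRF2 antioxidant genes 3 were lower, the glutathione synthesis gene Gclm (130.4, 108 and 90.03 against 68.1, 66.5 and 62.4 CPM; log2 fold change -0.74, SE 0.18, adjusted p = 0.313, edgeR), Prdx6 (966, 955 and 775 against 495, 606 and 522 CPM) and Gpx8 (21.2, 25.8 and 12.6 against 11.03, 7.399 and 10.98 CPM). Of 18 cholesterol synthesis genes Mvk alone was lower (26.01, 26.5 and 18.7 against 14.3, 15.2 and 13.1 CPM). Glycolysis, cytosolic ribosome, integrated stress response and circadian clock lists had 0 calls in either direction, with 18, 20, 13 and 13 genes tested, and medians of -0.07, -0.16, 0.12 and 0.24.

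Of the remaining lists, the 6 tested erythroid genes held 0 calls with a median of 0.21. Without knockout mouse 1, the library with the most hemoglobin, 5 of them were lower and the median was -1.48. Hypoxia response genes were lower in 4 and higher in 1 of 16 cases, coagulation and fibrinolysis genes lower in 2 and higher in 1 of 15, and S100 and annexin genes higher in 2 (S100a8 and S100a9) and lower in 1 of 13. Matricellular genes had 1 call in each direction of 14, perivascular fibroblast genes 3 higher and 1 lower of 11, ependyma and choroid plexus genes 2 in each direction of 11, and heat shock genes 1 lower of 15, Cryab. When knockout mouse 2 was left out, the number higher was 7 for perivascular fibroblast genes, 4 for hypoxia response, 4 for S100 and annexin genes and 4 for matricellular genes. Without control mouse 3 it was 1, 0, 0 and 0.

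**Figure D2:**
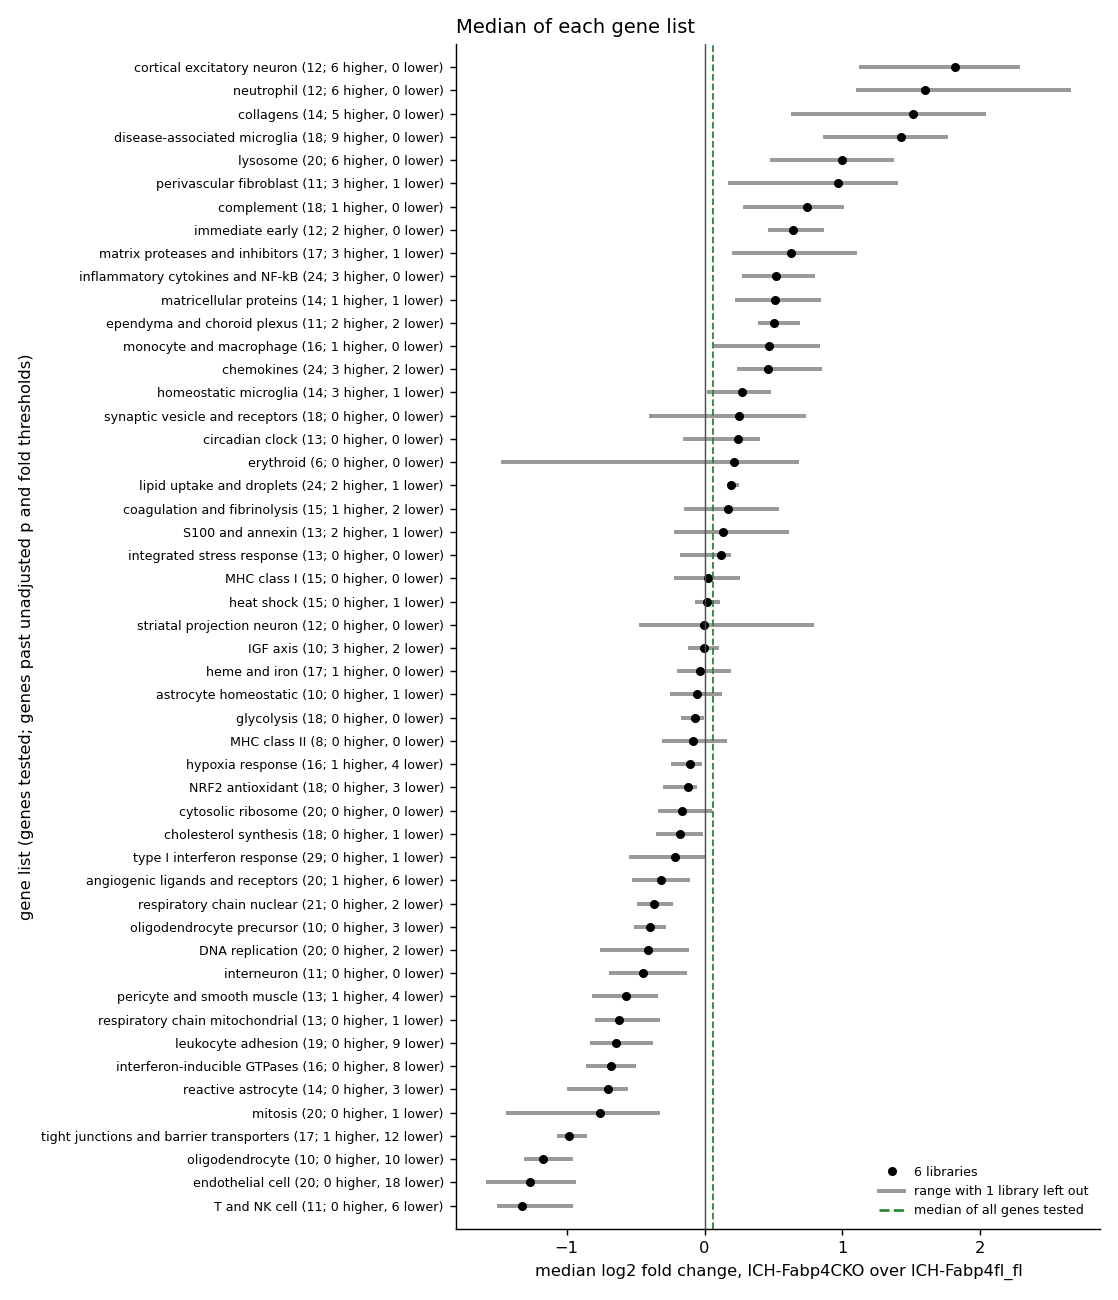
Median log2 fold change of knockouts over controls for each list with at least 5 tested genes, with the range over the 6 fits that leave out 1 library and the median of all genes (0.06) as a dashed line. Endothelial, oligodendrocyte, barrier and T and NK cell lists lie below 0 over their whole range, and DAM, lysosomal, neutrophil, collagen and cortical neuron lists above 0.

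Pathways of the Kyoto Encyclopedia of Genes and Genomes (KEGG), taken from the annotation deposited with the counts, gave wider groups. Of 123 tested genes of the Lysosome pathway, 20 were higher (16.3%) and 2 lower, and 104 lay above 0, with a median of 0.49. Cholesterol metabolism had 7 of 37 genes higher and 1 lower. In ECM-receptor interaction 11 of 77 genes were higher and 8 lower. Cell adhesion molecules had 14 of 116 genes lower (12.1%) and 6 higher, and Leukocyte transendothelial migration had 11 of 90 lower (12.2%) and 1 higher, although the medians of both pathways lay above 0 (0.14 and 0.18). Glutathione metabolism had 9 of 55 lower (16.4%) and 2 higher. In Oxidative phosphorylation 100 of 121 genes lay below 0, with 10 lower and 2 higher, and 118 of 127 Ribosome genes lay below 0 with 1 lower. NF-kappa B signaling had 8 genes higher (8.5%) and 3 lower (3.2%) of 94, and IL-17 signaling 8 (11.3%) and 3 (4.2%) of 71. Toll-like receptor signaling had 6 higher (7.4%) and 2 lower (2.5%) of 81. TNF signaling, with 6 higher (5.7%) and 3 lower (2.9%) of 105, lay near the shares of all genes, 4.4% and 4.43%. With 1 library left out, the medians of these pathways ran from 0.06 to 0.33, 0.11 to 0.32, 0.20 to 0.47 and 0.07 to 0.22, in this order.

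The spread among the mice followed 2 separate directions. The first principal component, with 49.5% of the variance of log2 CPM, did not separate the genotypes. It placed knockout mouse 2 and control mouse 3 at one end and knockout mouse 3 and control mouse 1 at the other. The second component, with 30.5%, placed the controls between 25.2 and 44.2 and the knockouts between -41.7 and -28.9. The mean log2 CPM of the synaptic list was 5.98, 6.66 and 7.57 in the controls and 6.74, 8.0 and 6.42 in the knockouts, and that of the DAM list was 8.26, 7.79 and 7.10 in the controls and 9.18, 7.65 and 9.78 in the knockouts. The means of the endothelial, barrier and oligodendrocyte lists did not overlap between the genotypes, whereas those of the mural, angiogenic, leukocyte adhesion, DAM, lysosome, collagen and mitosis lists did.

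**Figure D3:**
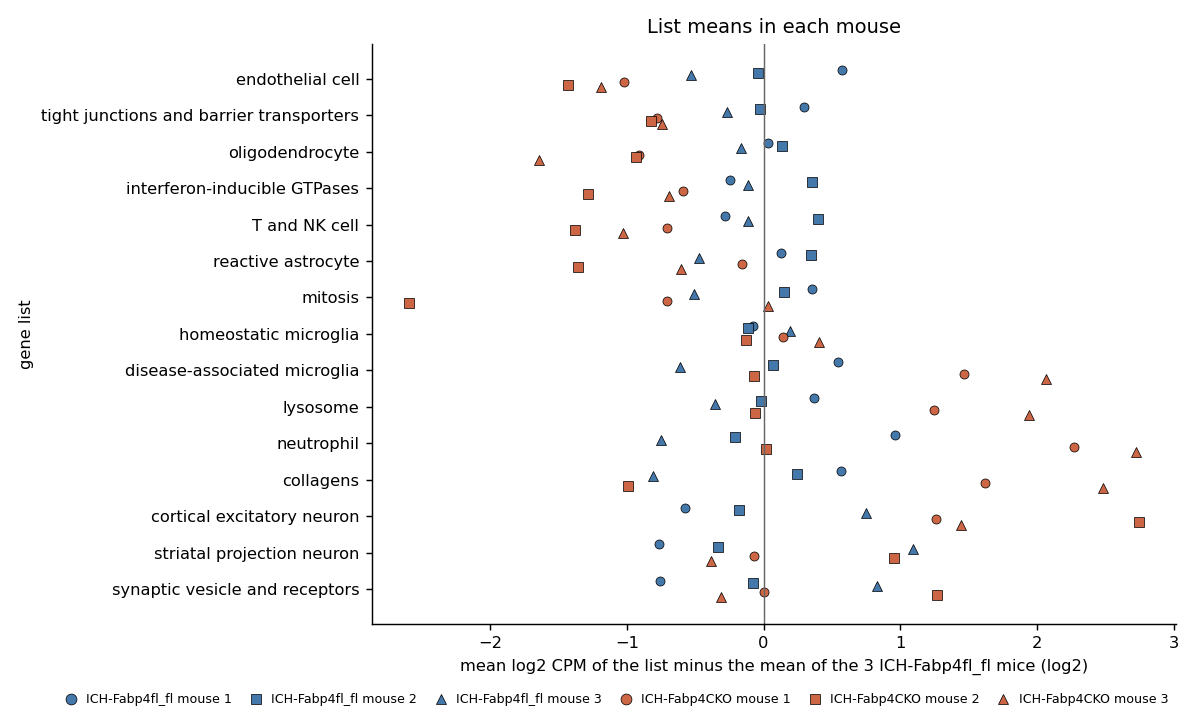
Mean log2 CPM of 15 gene lists in each mouse, as the difference from the mean of the 3 controls, with controls in blue, knockouts in orange and a marker shape per mouse number. All 3 knockouts lie below all controls for the first 5 lists, while for the DAM, lysosome, neutrophil and collagen lists knockout mouse 2 (orange square) lies among or just below the controls.

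Sham-operated mice of the same genotypes gave a comparison that shares no library with the one above. Of 14395 genes tested between Sham-Fabp4CKO and Sham-Fabp4fl_fl, 125 (0.868%) were higher and 465 (3.23%) lower in Sham-Fabp4CKO by the unadjusted thresholds, and 16 (0.111%) were lower at an adjusted p of 0.05 with edgeR's quasi-likelihood test. Endothelial, oligodendrocyte and barrier lists had 0 calls there, with medians of -0.21, -0.22 and -0.27. Of 12 immediate early genes, 4 were higher and 0 lower in Sham-Fabp4CKO, with a median of 0.88, beside 0.64 after ICH. The interferon-inducible GTPases had 10 of 15 tested genes lower in Sham-Fabp4CKO with a median of -0.78, the type I interferon list 12 of 27 lower (median -0.68), and MHC class II 5 of 7 lower (median -1.59). With TMM normalization over all 12 libraries, Gbp5 stood at 6.94, 5.53 and 2.69 CPM in Sham-Fabp4fl_fl and 2.87, 2.28 and 2.39 CPM in Sham-Fabp4CKO. Igfbp2 was lower in both settings, at 41.5, 45.6 and 56.5 CPM in Sham-Fabp4fl_fl and 12.9, 11.3 and 13.3 CPM in Sham-Fabp4CKO (log2 fold change -1.92, SE 0.14, adjusted p = 0.0202, edgeR), beside 183, 176 and 124 CPM and 35.95, 29.4 and 30.5 CPM on the same scale after ICH. The 16 genes lower at the adjusted threshold held Igfbp2 together with Ttr, Aqp1, Kl and Kcne2 of the ependyma and choroid plexus list. They also held Scgb1a1 (log2 fold change -8.75) and Sftpa1 (-8.89), which are known from lung epithelium (adjusted p = 0.0328 for each, edgeR). Of 11 tested genes of that list, 6 were lower and 1 higher in Sham-Fabp4CKO, with a median of -1.01. The part of choroid plexus tissue in the sham comparison was not tested.

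The difference between these 2 genotype effects was tested as an interaction in one fit of the 12 libraries. Of 15089 genes, 3 passed an adjusted p of 0.05, Ttr and Folr1 above 0 (0.0133%) and Tbx1 below 0 (0.00663%), and by the unadjusted thresholds 695 genes (4.61%) were above 0 and 496 (3.29%) below 0. Endothelial genes were below 0 by the unadjusted thresholds in 15 of 20 cases, barrier genes in 9 of 17 and oligodendrocyte genes in 6 of 10. For Cldn5 the sham groups stood at 26.1, 22.02 and 25.3 CPM in Sham-Fabp4fl_fl and 30.8, 28.1 and 24.6 CPM in Sham-Fabp4CKO, and the ICH groups on the same scale at 206, 119 and 88.4 CPM in the controls and 32.1, 27.3 and 29.3 CPM in the knockouts (interaction -2.41, SE 0.36, adjusted p = 0.0687, edgeR). On the side above 0 stood 9 of 18 DAM genes, 8 of 20 lysosome genes, 7 of 14 collagen genes and 6 of 12 cortical neuron genes. An interaction above 0 can come from a lower level in Sham-Fabp4CKO as well as from a higher one after ICH. In the sham comparison 6 of 14 collagen, 2 of 15 DAM and 0 of 19 lysosome genes were lower and 0 higher. Of the 12 cortical neuron genes 3 were lower and 1 higher there. The interferon-inducible GTPases had 0 members past the thresholds in the interaction, which does not show that the 2 genotype differences were equal, and their median interaction was 0.06.

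**Figure D4:**
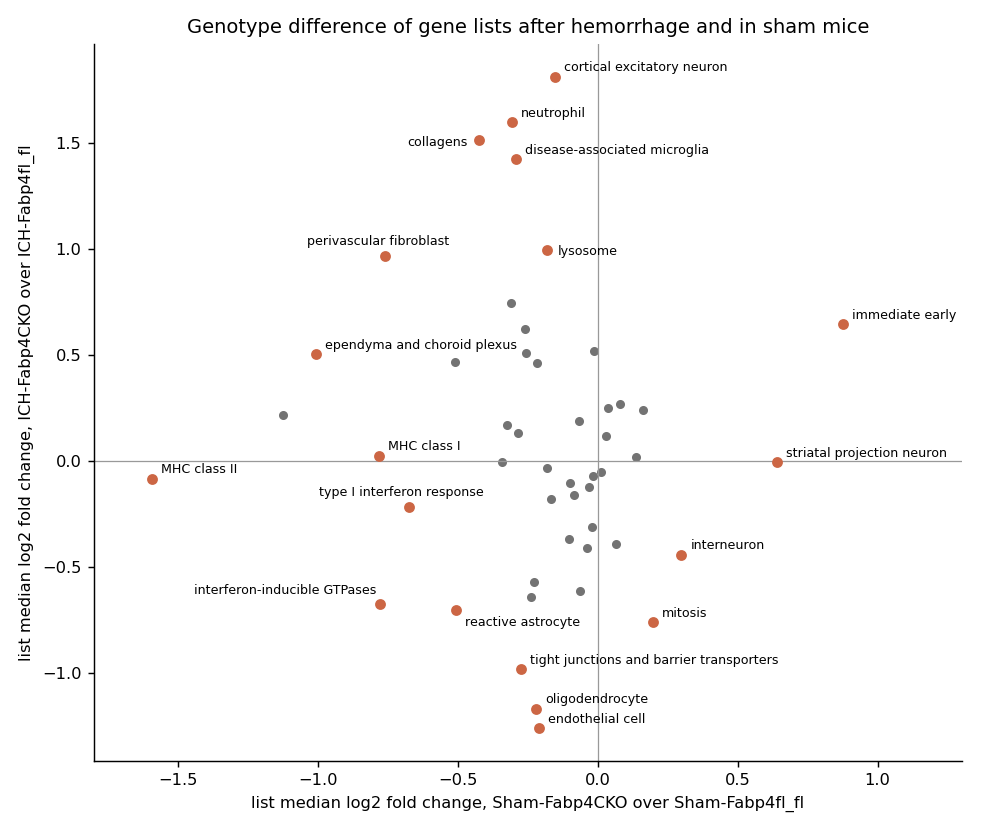
Median log2 fold change of each gene list between the genotypes in sham mice (horizontal axis) and after ICH (vertical axis), for lists with at least 5 genes tested in both, with named lists in orange. Endothelial and oligodendrocyte lists lie near 0 in sham and below -1 after ICH, whereas the interferon-inducible GTPases lie at -0.78 and -0.68.

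The calls also varied with transcript length. With 14517 genes divided into 8 bins by the median length of their protein-coding transcripts in GENCODE M21, 6.37% of the shortest genes were lower and 2.25% higher in the knockouts, against 2.15% and 8.76% of the longest, and the median log2 fold change went from -0.10 to 0.28. Control mouse 1 deviated most in this respect. After a trend on length was removed from each library, an alternative chosen after the data were seen, 513 genes were higher (3.53%) and 677 lower (4.66%). The median of the endothelial list was then -1.25, that of the oligodendrocyte list -1.16 and that of the DAM list 1.51. Other groups lost calls. The Oxidative phosphorylation pathway had 0 genes lower (median -0.28). Both respiratory chain lists also had 0 lower, with medians of -0.42 for mitochondrially encoded and -0.22 for nuclear genes. Of the collagen list 2 genes were higher (median 1.29), and the median of the Ribosome pathway was -0.08. The part of RNA quality in this trend was not tested.

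**Figure D5:**
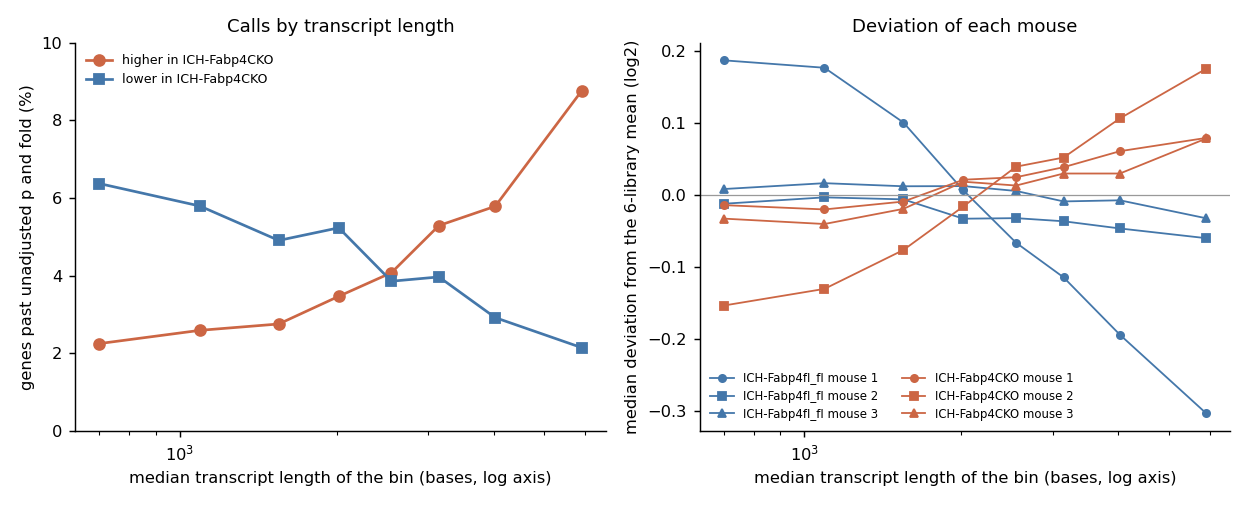
Left, percent of genes higher (orange) and lower (blue) in the knockouts by the unadjusted thresholds in 8 bins of transcript length. Right, the median deviation of each mouse from the mean of the 6 libraries in the same bins, where control mouse 1 (blue circles) runs from 0.19 to -0.30.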

How the data were processed

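The authors deposited 1 table of estimated counts per gene for 12 libraries of poly(A) RNA from mouse brain tissue. Of the values in the ICH libraries, 8.11% to 8.69% were not whole, and all were rounded. The submitters' processing notes name Bowtie2 2.2.8, HISAT2, StringTie 1.3.1 and DESeq2 without a role, and the build and annotation are not given in the sources used here. The table held 21956 genes, 83 of them without a symbol. The labels do not say that replicates were separate animals, so p-values measure the spread between these samples.

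Counts were filtered with filterByExpr (minimum count 10, minimum total 15), scaled by TMM and tested with edgeR 4.0.16 (glmQLFit and glmQLFTest, with limma 3.58.1 in R 4.3.3) on the 6 ICH libraries, with Benjamini-Hochberg adjustment. The standard error (SE) was the log2 fold change divided by the square root of F. DESeq2 1.42.0, edgeR's exact test and a fit of all 12 libraries were alternatives, as were other scalings and filters, leaving out each library, and a replicate block. An adjusted p that DESeq2 gave as missing stayed missing. The sham comparison and the interaction used the same test. The test scripts were tested on simulated data. Python 3.11.15, pandas 2.3.3, numpy 2.4.6, scipy 1.17.1 and matplotlib 3.10.9 were used for summaries and figures.

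The comparison and the 52 gene lists (755 genes, of which 753 were in the table) were chosen with earlier results of these data known. List genes were matched by symbol, otherwise by Ensembl ID, and a symbol on more than 1 row was read from the row with the higher level. Genes were named by a rule: Fabp4 and the genes the study followed, in each direction the 12 non-overlapping genes past the unadjusted thresholds that ranked first by p, and per list up to 4 called members per direction and the 2 most abundant. Other list members named in the text were chosen after their values were seen. Promoter windows came from RefSeq (GRCm38.p6). Some genes that the rule selects are not reported here.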

Additional observations from a re-analysis of the deposited data

Results flagged for a closer look

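For 3 genes the genotype difference after ICH differed from that in sham mice at an adjusted p of 0.05 (edgeR's quasi-likelihood test of the interaction, adjusted p = 0.0278 for each). Levels are CPM scaled over all 12 libraries, for mice 1, 2 and 3. Ttr, the transthyretin gene of the choroid plexus, stood at 783, 1484 and 2929 CPM in Sham-Fabp4fl_fl, 19.1, 19.03 and 14.2 CPM in Sham-Fabp4CKO, 22.7, 16.96 and 13.02 CPM in ICH-Fabp4fl_fl and 12.2, 6.502 and 9.405 CPM in ICH-Fabp4CKO. Its interaction was 5.73 on the log2 scale (SE 0.63), and only Sham-Fabp4fl_fl was high. Folr1, a folate receptor gene also known from choroid plexus, stood at 5.16, 9.42 and 19.00 CPM in Sham-Fabp4fl_fl, 1.34, 1.299 and 1.52 CPM in Sham-Fabp4CKO, 0.0704, 0.0624 and 0 CPM in ICH-Fabp4fl_fl and 0.776, 1.12 and 0.9295 CPM in ICH-Fabp4CKO. Its fitted interaction was 7.33 (SE 0.88), a value that depends on the prior count because each ICH-Fabp4fl_fl library lay at or under 3 counts. Against that floor in each control library, Folr1 was at least 5.27-fold higher in the knockouts after ICH. Tbx1 stood at 0.771, 0.931 and 1.03 CPM in Sham-Fabp4fl_fl, 1.94, 2.73 and 1.61 CPM in Sham-Fabp4CKO, 11.1, 9.603 and 5.58 CPM in ICH-Fabp4fl_fl and 1.68, 1.39 and 1.695 CPM in ICH-Fabp4CKO, an interaction of -3.66 (SE 0.45), with all groups of 3 separate between the genotypes and in opposite directions in sham and ICH.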

How the results depend on the processing

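The number of genes called at an adjusted p of 0.05 depended on the tool. Against 0 in the quasi-likelihood test of the 6 libraries, DESeq2 called 238 higher and 294 lower, all 12 libraries in one fit 154 and 208, and edgeR's exact test 129 and 136. Fabp4 passed the adjusted threshold in these 3, at -2.99, -3.01 and -2.94 on the log2 scale (adjusted p = 0.00249, 0.0418 and 0.00363), and lay between -3.46 and -2.59 with 1 library left out. A fold change of at least 2 left 387 higher and 333 lower genes. Leaving out 1 library gave 0 to 2 higher genes at the adjusted threshold, 455 to 1551 higher and 445 to 950 lower genes by the unadjusted thresholds, and 1857 to 3610 higher and 1730 to 2550 lower genes without overlap. The highest values, 1551, 3610 and 2550, came without knockout mouse 2, and without control mouse 3 the last 2 were 2654 and 2271. With fewer libraries per group, more genes are free of overlap by construction. The median of T and NK cell genes ran from -1.50 to -0.96 with 1 library left out, the latter without control mouse 2. It was -0.70 when 10 counts were required in every library, where that of cortical neuron genes was 0.41. This filter leaves out genes with few counts in any library, among them Neurod6 and Neurod2, which were scarce in the controls.

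Control and knockout mice share replicate numbers, but the numbers did not pair the samples, with same-number correlations of deviations of 0.362, -0.179 and -0.610. A replicate block gave 427 higher and 482 lower genes by the unadjusted thresholds and 0 at the adjusted threshold.

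Among single genes named above, the direction of 12 that were not called turned with 1 library left out. The log2 fold change then ran from -0.72 to 0.97 for Arg1, -0.22 to 0.43 for B2m, -0.28 to 1.48 for Cd4, -0.52 to 0.070 for Cd74, -0.92 to 0.15 for Col4a1, -0.11 to 0.41 for Fabp3, -0.13 to 0.91 for Fabp5, -0.50 to 0.031 for Icam1, -0.36 to 0.018 for Irgm2, -0.61 to 0.56 for Ppp1r1b, -1.85 to 0.069 for Sele and -0.024 to 0.61 for Tmem119. For Ppp1r1b it was 0.0050 with replicate block.

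The removal of a trend on length was chosen after seeing the data. Fabp4 and the lymphocyte genes are limited by depth, with at most 63 counts for Fabp4 in any ICH library. For 1 gene in 3 and 3 libraries, exact permutation gives no p below 0.1.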

Other observations

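Transcripts known from lung epithelium were counted in several of these brain libraries. Sftpc, a surfactant gene, had 294, 38 and 6 counts in the ICH-Fabp4fl_fl libraries, 331, 254 and 340 in ICH-Fabp4CKO, 385, 241 and 22 in Sham-Fabp4fl_fl and 6, 13 and 3 in Sham-Fabp4CKO. Scgb1a1, the club cell secretory protein gene, had 227, 79 and 0 counts in ICH-Fabp4fl_fl and 291, 237 and 270 in ICH-Fabp4CKO. In Sham-Fabp4fl_fl it had 277, 200 and 64 counts and in Sham-Fabp4CKO 0, 0 and 1. Sftpa1, another surfactant gene, had 49, 64 and 54 counts in Sham-Fabp4fl_fl and 0 in each Sham-Fabp4CKO library. Scgb1a1 and Sftpa1 were among the genes lower in Sham-Fabp4CKO at the adjusted threshold. The part of these lung transcripts in any other difference reported above was not tested.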
